A study of Mus musculus with 19 samples.

Results

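Macrophage and myeloid genes were followed in bulk RNA sequencing of mouse organoids, which are 3-dimensional cell cultures. The 35 members were taken by gene symbol from a list that was drawn up with earlier results of these data known. Each was found once among the 51912 genes of the table that holds normal lung and non-small cell lung cancer (NSCLC) organoids, and once among the 24421 genes of the table that holds NSCLC organoids sensitive or resistant to immunotherapy. The first table had 3 normal and 4 NSCLC libraries, and the second had 3 sensitive and 9 resistant libraries, 19 in all. The labels give the tissue and the group and name no strain, genotype, tumour model, drug, clone or culture medium, and they do not say whether libraries of a group came from separate animals or cultures. P-values therefore measure the spread between these libraries, which may be technical. The 2 comparisons ask how far leukocyte transcripts differ between normal and tumour organoids and between organoids that respond to immunotherapy and those that do not.

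Macrophages are tissue phagocytes that arise from embryonic precursors and from blood monocytes. The transcription factor PU.1, encoded by Spi1, directs their development, and signalling through the CSF1 receptor keeps most of them alive. In the mouse lung, alveolar macrophages clear surfactant and inhaled particles and carry the scavenger receptor MARCO and the chitinase-like protein encoded by Chil3. Many surface receptors of these cells signal through small adaptors with an immunoreceptor tyrosine-based activation motif (ITAM), of which Tyrobp encodes DAP12 and Fcer1g encodes the Fc receptor gamma chain. Several members are not restricted to macrophages: Lyz2 is also made by alveolar type 2 cells of the mouse, and Ptprc, which encodes CD45, is shared by all nucleated blood cells.

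Promoter sequences are shown for 5 members on which the account turns: neighbouring C1q genes, an ITAM adaptor, the member with the largest fall in resistant organoids, and 1 member that stayed high in NSCLC. C1qb (chromosome 4, 136880129 to 136886187) and C1qc (136889804 to 136893065) lie side by side on the minus strand, with C1qa next to them (136895917 to 136898803), by the GENCODE annotation of GRCm38. The sequences run from 250 bases before to 50 bases after the RefSeq start (GRCm38.p6), 5′ to 3′ on the strand of the gene. Capitals mark AGGAAG, a purine-rich core bound by ETS-type factors such as PU.1, or CTTCCT, which is the same motif on the other strand.
C1qb promoter, chr4:136886151-136886450, minus strand: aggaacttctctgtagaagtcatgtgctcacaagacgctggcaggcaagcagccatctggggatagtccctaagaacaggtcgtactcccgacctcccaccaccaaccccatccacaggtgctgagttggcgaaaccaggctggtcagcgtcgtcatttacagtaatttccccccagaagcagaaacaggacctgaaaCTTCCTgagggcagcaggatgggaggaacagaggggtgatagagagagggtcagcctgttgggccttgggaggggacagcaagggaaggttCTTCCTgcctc
C1qc promoter, chr4:136892865-136893164, minus strand: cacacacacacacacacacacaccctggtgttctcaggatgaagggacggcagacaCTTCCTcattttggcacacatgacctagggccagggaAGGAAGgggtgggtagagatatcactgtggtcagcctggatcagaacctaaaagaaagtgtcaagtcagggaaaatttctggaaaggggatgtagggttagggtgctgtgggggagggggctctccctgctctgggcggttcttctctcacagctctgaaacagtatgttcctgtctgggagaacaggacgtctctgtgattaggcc
Fcer1g promoter, chr1:171234300-171234599, minus strand: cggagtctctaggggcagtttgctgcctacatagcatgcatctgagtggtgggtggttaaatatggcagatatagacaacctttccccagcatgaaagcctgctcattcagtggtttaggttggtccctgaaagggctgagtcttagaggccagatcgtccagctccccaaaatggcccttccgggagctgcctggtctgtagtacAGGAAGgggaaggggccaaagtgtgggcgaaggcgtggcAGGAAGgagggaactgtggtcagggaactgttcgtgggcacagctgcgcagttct
Chil3 promoter, chr3:106167515-106167814, minus strand: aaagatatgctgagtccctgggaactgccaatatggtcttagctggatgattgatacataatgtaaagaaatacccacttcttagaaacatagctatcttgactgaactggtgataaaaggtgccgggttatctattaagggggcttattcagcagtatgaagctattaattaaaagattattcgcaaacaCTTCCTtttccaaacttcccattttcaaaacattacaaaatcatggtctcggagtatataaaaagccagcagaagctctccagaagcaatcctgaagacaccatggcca
Lcp1 promoter, chr14:75130873-75131172, plus strand: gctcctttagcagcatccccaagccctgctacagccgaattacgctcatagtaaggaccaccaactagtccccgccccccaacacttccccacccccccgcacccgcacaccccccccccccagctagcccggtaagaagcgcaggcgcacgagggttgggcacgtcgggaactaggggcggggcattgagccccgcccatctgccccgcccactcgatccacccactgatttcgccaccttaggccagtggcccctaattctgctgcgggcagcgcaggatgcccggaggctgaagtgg
The motif was present 2 times in each of the C1qb, C1qc and Fcer1g promoters, 1 time in that of Chil3, and its letters were not in this window of Lcp1. Of the 35 members, 26 matched a RefSeq promoter. The motif was in 17 of these 26 (65.4%) and in 9498 of all 27025 promoters of the same length (35.1%), searched on both strands. Cybb, Ncf1, Plek, Clec7a and Aif1, which were lower in NSCLC as given below, had 0 matches. Of the members that were higher there, Mrc1 had 3 matches and Cd68 had 0. Whether the motif goes with the calls was not tested. A match is a stretch of letters and not a measured binding site.

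Normal libraries held 20138197 to 21060762 counts and NSCLC libraries 122967042 to 154479953, and sensitive and resistant libraries held 11988677 to 24462955. Epithelial markers were present in every library. Their summed level was 2515 to 2861 CPM (counts per 1000000 of the library total as scaled by edgeR's TMM method) in normal and 12620 to 21890 in NSCLC organoids. It was 6744 to 9003 in sensitive libraries and 297.1 to 1036 in resistant libraries 1 to 7, with 2379 in resistant 8 and 3100 in resistant 9. The 35 members together made up 1896 to 3695 counts in 1000000 of the unscaled total in normal, 285.2 to 464.6 in NSCLC, 4545 to 18690 in sensitive and 654.3 to 2521 in resistant libraries. Lyz2 alone was most of the normal total, at 1565 to 2663 CPM of a summed 1784 to 3420 CPM. In NSCLC it was at 3.82 to 37.2 CPM of a summed 322.4 to 467.5 CPM. The difference in this total between normal and NSCLC is thus largely that of Lyz2. Levels are compared within a table and not across the tables. In bulk libraries, fewer cells of a type and less RNA per cell cannot be told apart.

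Most of the macrophage and myeloid genes were far lower in NSCLC than in normal lung organoids. Of the 33 members tested, 24 were lower, 2 were higher and 7 did not pass (edgeR's quasi-likelihood test, Benjamini-Hochberg adjusted p under 0.05 over all genes tested). Among all 19932 genes tested, 25.0% were lower and 28.5% were higher. The median log2 fold change of the tested members was -5.14, and that of all genes tested was 0.11. The filter on low counts can be passed through either group, so a member with counts in normal libraries alone could enter the test. Trem2 and Ly86 did not pass it. In 23 of the 24 lower members the groups did not overlap, which was so in that direction for 27.7% of all genes tested. In the upward direction the groups did not overlap for Lcp1 and Mrc1, and for 31.6% of all genes tested.

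**Figure D1:**
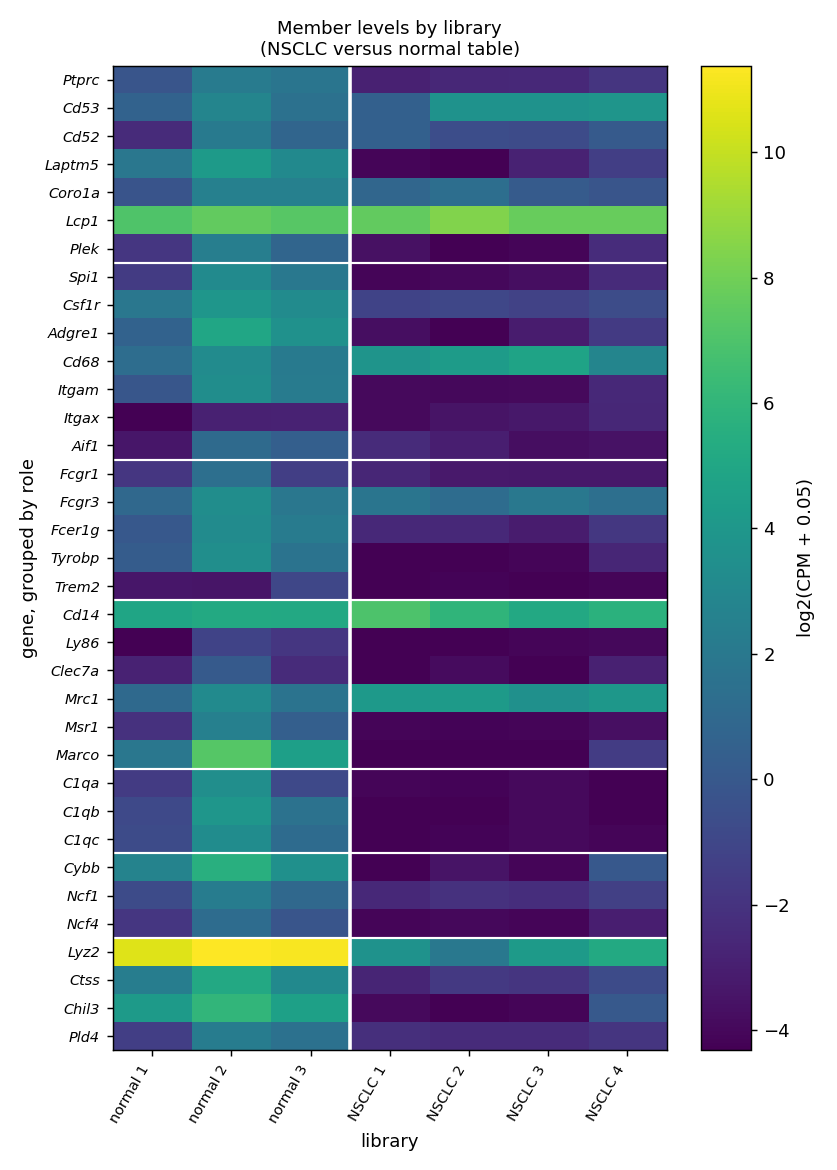
Level of each of the 35 members (rows, grouped by role) in each normal and NSCLC library (columns), as log2 of CPM plus 0.05. Normal 2 is the brightest of the normal columns for 32 members, and among the NSCLC columns a few rows (Lcp1, Cd14, Cd53, Cd68, Mrc1, Lyz2) stay bright while C1q, Marco and Tyrobp are dark.

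Of the pan-leukocyte genes, 3 of 7 were lower and 4 did not pass. Ptprc was at 0.841, 4.61 and 3.37 CPM in normal libraries 1 to 3 and at 0.0884, 0.121, 0.124 and 0.223 CPM in NSCLC libraries 1 to 4. Every normal library lay above every NSCLC library, and the log2 fold change was -4.39 ± 0.62 (SE, edgeR adjusted p = 0.000647). Laptm5, a lysosomal membrane protein of blood cells, fell from 10.3 ± 7.57 to 0.108 ± 0.156 CPM (SD, n = 3 and 4, as for all means of this comparison, log2 fold change -6.54, edgeR adjusted p = 0.00361). Plek, the platelet and leukocyte C kinase substrate pleckstrin, fell from 2.39 ± 2.57 to 0.0467 ± 0.0678 CPM (log2 fold change -5.62, edgeR adjusted p = 0.00836). The other four did not pass the test. Lcp1, the actin-bundling L-plastin, was at 130, 197 and 157 CPM in normal and at 199, 344, 209 and 209 CPM in NSCLC libraries, with a log2 fold change of 0.57 ± 0.24 (edgeR adjusted p = 0.0737). With a replicate block Lcp1 passed as higher (edgeR adjusted p = 0.0371, and 0.0371 to 0.211 over the alternatives). Cd53, a leukocyte tetraspanin, was at 1.5 to 7.12 CPM in normal libraries and at 1.36, 12.6, 12.8 and 14.5 CPM in NSCLC libraries, so that NSCLC 1 stood apart (log2 fold change 1.43 ± 0.80, edgeR adjusted p = 0.166). Without NSCLC 1 the adjusted p for Cd53 was 0.0172 (0.0172 to 0.363 over the 14 alternatives). Cd52, a small glycoprotein of lymphocytes and macrophages, had a log2 fold change of -1.20 and an edgeR adjusted p of 0.258. Coro1a, the actin regulator coronin 1A, had -1.38 and 0.108. The groups overlapped for Cd53, Cd52 and Coro1a. Without normal 1, Cd52 (edgeR adjusted p = 0.0343, and 0.0343 to 0.952 over the alternatives) and Coro1a (0.0152, and 0.0152 to 0.359) were lower.

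Among the macrophage identity genes, 5 of 7 were lower, Cd68 was higher and Itgax did not pass. Spi1 was at 0.28, 9.1 and 3.93 CPM in normal libraries and was read 1, 2, 3 and 20 times in the NSCLC libraries, or 0.00803 to 0.139 CPM. Its log2 fold change was -6.51 ± 1.28 (edgeR adjusted p = 0.0033). Csf1r, the receptor for CSF1 and IL-34, was at 3.64, 14.8 and 9.29 CPM in normal and at 0.372 to 0.572 CPM in NSCLC libraries (log2 fold change -4.35 ± 0.48, edgeR adjusted p = 0.000174). The groups did not overlap for either gene. Adgre1, which encodes the mouse macrophage marker F4/80, fell from 15 ± 15.2 to 0.0905 ± 0.124 CPM (log2 fold change -7.34, edgeR adjusted p = 0.00283). Itgam, the integrin chain CD11b, fell from 5.26 ± 4.73 to 0.0429 ± 0.0551 CPM (log2 fold change -6.87, edgeR adjusted p = 0.00117). For Aif1, which encodes the calcium-binding protein IBA1, the fall was from 1.15 ± 1.04 to 0.0695 ± 0.0543 CPM (log2 fold change -4.03, edgeR adjusted p = 0.0103), and normal 1 at 0.0467 CPM lay within the NSCLC range. This call was lost with a replicate block (log2 fold change -3.62, edgeR adjusted p = 0.105, the highest over the alternatives, which began at 0.000119). Cd68, a lysosomal glycoprotein of phagocytes, went the other way, from 2.38, 9.49 and 4.11 CPM in normal to 14, 19.3, 27.5 and 6.88 CPM in NSCLC libraries. NSCLC 4 lay below normal 2, and the log2 fold change was 1.67 ± 0.58 (edgeR adjusted p = 0.0406). This call was lost under 6 of the 14 alternatives tried, with adjusted p of 0.0574 to 0.126 among them and 0.00842 to 0.126 over all 14. Itgax, the integrin chain CD11c, was at or below 0.118 CPM in every library of the table.

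The Fc receptor and ITAM adaptor genes included 3 of 4 tested members that were lower. Tyrobp was at 1.12, 10.9 and 3.05 CPM in normal libraries, and its reads in NSCLC libraries 1 to 4 numbered 0, 0, 1 and 16. The log2 fold change was -7.29 ± 1.40 (edgeR adjusted p = 0.00291). Fcer1g was at 0.934, 9.62 and 4.67 CPM in normal and at 0.129, 0.128, 0.0662 and 0.244 CPM in NSCLC libraries (log2 fold change -5.14 ± 0.79, edgeR adjusted p = 0.00099). Both adaptors thus had normal libraries wholly above the NSCLC libraries. Fcgr1, the high-affinity IgG receptor, fell from 1.06 ± 1.36 to 0.0662 ± 0.031 CPM (log2 fold change -3.99, edgeR adjusted p = 0.00573). Its normal libraries had 5, 60 and 7 reads, and without normal 2 the log2 fold change was -2.08 (edgeR adjusted p = 0.029). The call was lost with a replicate block (edgeR adjusted p = 0.0551, over a range of 1.54e-05 to 0.0551). Fcgr3, a low-affinity IgG receptor that needs the gamma chain, was at 1.96 to 10.1 CPM in normal and 2.26 to 3.81 CPM in NSCLC libraries and did not pass (log2 fold change -0.79 ± 0.51, edgeR adjusted p = 0.226). Trem2, a lipid-sensing receptor that signals through DAP12, had 12 reads in all normal libraries together and 2 in all NSCLC libraries, a depth-adjusted ratio of normal to NSCLC of 49.0 (95% exact interval 10.9 to 451, which covers counting error alone). Of those 12 reads, 10 were in normal 3, and without that library the ratio was 12.2, with an interval of 0.883 to 168 that includes 1.

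Pattern recognition and scavenger receptors were split, with 3 of 5 tested genes lower, Mrc1 higher and Cd14 not passing. Marco was at 3.74, 154 and 22.8 CPM in normal libraries and was read 0, 0, 0 and 42 times in NSCLC libraries (log2 fold change -9.60 ± 1.78, edgeR adjusted p = 0.00245). All of its NSCLC reads were in NSCLC 4. Msr1, scavenger receptor A, fell from 2.37 ± 2.87 to 0.0127 ± 0.0101 CPM (log2 fold change -7.37, edgeR adjusted p = 0.00108). Clec7a, the beta-glucan receptor dectin-1, fell from 0.429 ± 0.542 to 0.0259 ± 0.0396 CPM (log2 fold change -3.94, edgeR adjusted p = 0.031), and without normal 2 its adjusted p was 0.31 (0.0124 to 0.31 over the alternatives). Mrc1, the mannose receptor CD206, was higher, at 2.01, 9.05 and 3.14 CPM in normal and at 17.8, 18.5, 11.9 and 15.5 CPM in NSCLC libraries, with no overlap (log2 fold change 1.75 ± 0.49, edgeR adjusted p = 0.0168). Without normal 3 the adjusted p for Mrc1 was 0.0664 (0.00078 to 0.0664 over the alternatives). Cd14, the lipopolysaccharide co-receptor, was at 29.5, 37.8 and 35.4 CPM in normal and at 126, 62.7, 35.3 and 53.1 CPM in NSCLC libraries (log2 fold change 1.02 ± 0.39, edgeR adjusted p = 0.0587). It passed, as higher, with DESeq2 (adjusted p = 0.0398), with no filter on low counts (0.039) and without NSCLC 3 (0.0177), over a range of 0.0177 to 0.157. Ly86, which encodes MD-1, the partner of the Toll-like receptor homologue RP105, had 14 reads in normal and 3 in NSCLC libraries, a depth-adjusted ratio of 38.1 (95% exact interval 10.6 to 207). The normal libraries had 0, 9 and 5 of these reads, and without normal 2 the ratio was 20.8 (4.05 to 134).

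All 3 chains of complement C1q, which macrophages secrete as a complex that opens the classical pathway, were lower, and they were nearly without reads in NSCLC. C1qa was at 0.28, 10.7 and 0.508 CPM, C1qb at 0.514, 15.4 and 2.96 CPM and C1qc at 0.561, 9.84 and 2.22 CPM in normal libraries 1 to 3. Each had its highest level in normal 2. In the 4 NSCLC libraries C1qa was read 1, 1, 2 and 0 times, C1qb 0, 0, 2 and 0 times and C1qc 0, 1, 2 and 1 times. The log2 fold changes were -8.74 ± 1.54, -10.23 ± 1.49 and -8.88 ± 1.18 (edgeR adjusted p = 0.00194, 0.000733 and 0.000463). For C1qb, with 425 reads in normal and 2 in NSCLC libraries, the depth-adjusted ratio was 1737, with a 95% exact interval of 477.8 to 14390. Normal 2 held 350 of the 425 reads, and without it the ratio was 469 (125 to 3940).

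The 3 NADPH oxidase genes, which encode the membrane subunit that makes superoxide and 2 of its cytosolic partners, were all lower. Cybb, the membrane subunit gp91phox, was at 6.45, 47.1 and 11.5 CPM in normal libraries and was read 0, 6, 1 and 134 times in NSCLC libraries (log2 fold change -6.44 ± 1.63, edgeR adjusted p = 0.0108). Ncf1 (p47phox) fell from 2.42 ± 2.16 to 0.202 ± 0.0954 CPM (log2 fold change -3.57, edgeR adjusted p = 0.00333). Ncf4 (p40phox) fell from 1.12 ± 1.05 to 0.0266 ± 0.0335 CPM (log2 fold change -5.29, edgeR adjusted p = 0.0027). The secreted and lysosomal effectors were also lower, 4 of 4. Lyz2, lysozyme M, was the most abundant member per kilobase of exon in normal organoids, at 1677 CPM per kilobase. It was at 1565, 2663 and 2394 CPM in normal and at 12.9, 3.82, 18.5 and 37.2 CPM in NSCLC libraries (log2 fold change -6.93 ± 0.76, edgeR adjusted p = 0.00017). Markers of alveolar type 2 cells moved with it: 10 of 11 were lower, and their summed level was 63210 to 71670 CPM in normal and 8591 to 15390 CPM in NSCLC libraries. Their part in the Lyz2 result was not tested. Ctss, the lysosomal protease cathepsin S, fell from 16.5 ± 16.9 to 0.285 ± 0.193 CPM (log2 fold change -5.85, edgeR adjusted p = 0.000724). Chil3 was at 19.1, 64.6 and 24.2 CPM in normal libraries and was read 2, 0, 1 and 140 times in NSCLC libraries (log2 fold change -7.14 ± 1.59, edgeR adjusted p = 0.00594). Pld4, a nuclease of endolysosomes, fell from 2.71 ± 2.28 to 0.167 ± 0.0355 CPM (log2 fold change -4.01, edgeR adjusted p = 0.00261). How reads shared with close relatives were counted is not given in the sources used here, so Lyz2, Chil3 and the Fcgr genes carry that uncertainty. Lyz1, the closest relative of Lyz2, ranged from 272 to 530 CPM in normal and from 151 to 1530 CPM in NSCLC libraries.

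Within the small groups the members had their highest levels in the same library. Normal 2 was the highest normal library for 32 of the 35 members and for 42.8% of all genes with a mean of at least 1 CPM, and normal 1 was the lowest for 34. The median ratio of normal 2 to normal 1 was 9.72 over the 33 members with reads in normal 1 and 1.04 over all such genes, of which 6.82% were above 2. Against normal 3 the median ratio was 2.49. Fibroblast markers also peaked in normal 2, at a summed 447.3 CPM against 85.72 in normal 1 and 84.45 in normal 3, and 10 of their 12 genes were lower in NSCLC. Pdgfrb, the receptor of mural cells and fibroblasts, fell from 10.8 to 0.0323 CPM (edgeR adjusted p = 1.62e-05). The part of fibroblasts in the result was not tested. In the NSCLC group, NSCLC 4 was the highest library for 23 of 35 members and for 28.4% of all genes. It held 140 of the 143 reads of Chil3, 134 of the 141 of Cybb and 16 of the 17 of Tyrobp. It did not hold the most reads of C1q, Cd14, Lcp1 or Cd68. Without NSCLC 4, 23 of 31 tested members were lower. Without normal 2 the fold change of 23 of the 26 called members moved by over 1.5 times and the median log2 value of the 26 went from -6.14 to -4.89, and without NSCLC 4 the fold change of 12 of the 25 still tested moved as far.

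Immunotherapy-resistant organoids had lower levels of most of these genes than sensitive ones. All 35 members were tested, and 26 were lower, 0 were higher and 9 did not pass (edgeR, adjusted p under 0.05). At an unadjusted p under 0.05 edgeR also found 0 higher, and so did DESeq2 at its adjusted p. Among all 14360 genes tested, 18.2% were lower and 19.3% higher. The median log2 fold change was -2.31 over the members and 0.06 over all genes tested. The groups did not overlap for 18 members, which was so in that direction for 16.5% of all genes tested, and 0 members lay wholly above (14.8% of all genes).

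**Figure D2:**
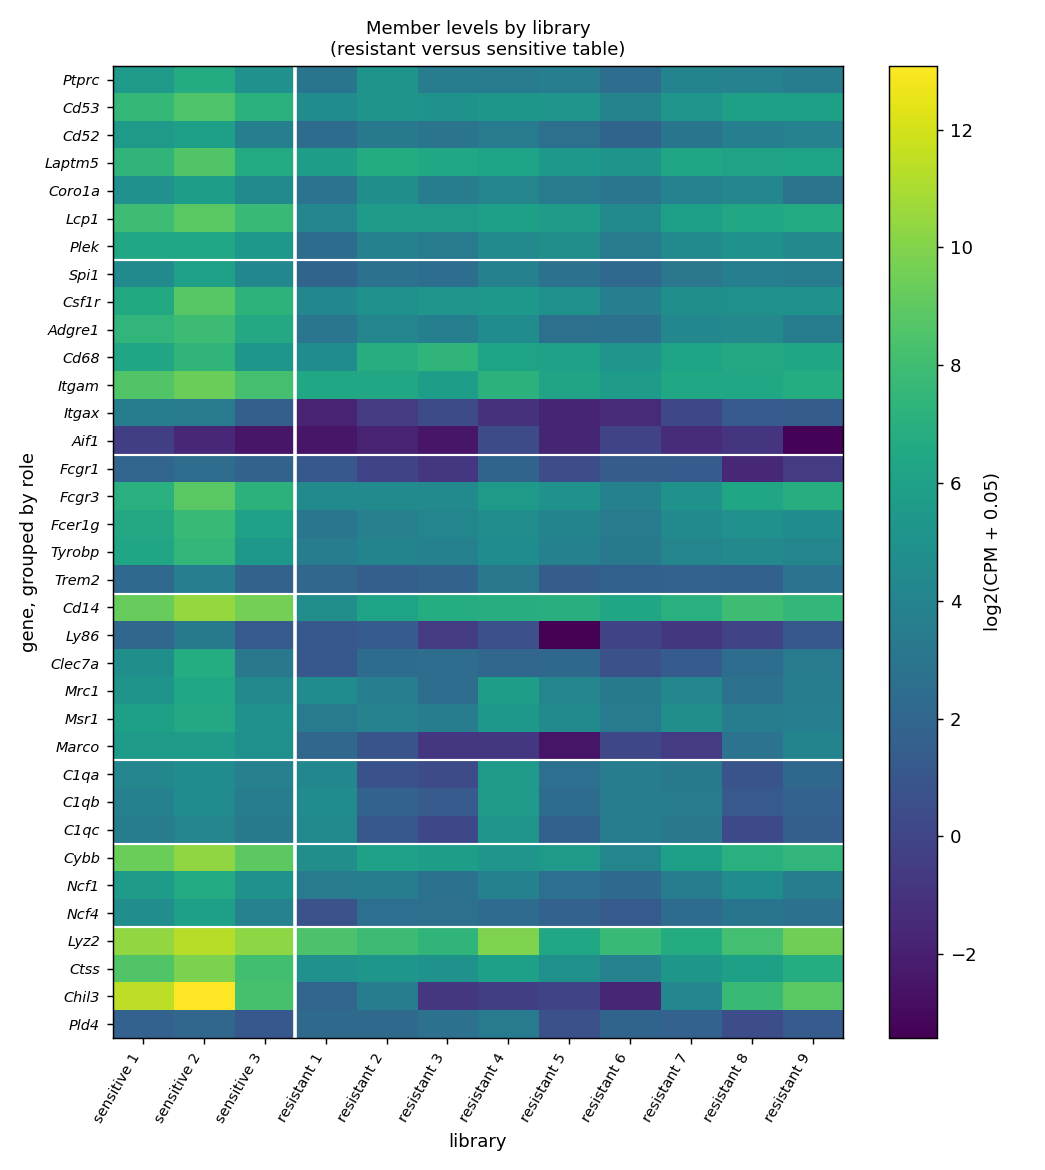
Level of each of the 35 members (rows, grouped by role) in each sensitive and resistant library (columns), as log2 of CPM plus 0.05. Sensitive 2 is the brightest sensitive column for 33 members, and among resistant columns the C1q rows are bright in resistant 1 and 4 while Chil3 is bright in 8 and 9.

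All 7 pan-leukocyte genes were lower. Ptprc was at 46.1, 107 and 30.7 CPM in sensitive libraries 1 to 3, and its 9 resistant libraries had a lowest value of 5.43, a median of 12.1 and a highest of 35.3 CPM, the highest being resistant 2. That library overlapped sensitive 3, and the log2 fold change was -2.13 ± 0.44 (edgeR adjusted p = 0.00259). Cd53 was at 190, 367 and 142 CPM in sensitive libraries and ranged from 15.3 through a median of 36.4 to 62.9 CPM in resistant libraries, without overlap (log2 fold change -2.61 ± 0.35, edgeR adjusted p = 0.000141). Lcp1, which did not pass in NSCLC, was at 253, 464 and 219 CPM in sensitive libraries and at 18.3 to 101 CPM, with a median of 51.2, in resistant libraries (log2 fold change -2.51 ± 0.39, edgeR adjusted p = 0.00043). Both genes were clear of overlap. Cd52 (38.9 ± 23.9 to 8.67 ± 3.63 CPM, edgeR adjusted p = 0.00146), Laptm5 (219 ± 149 to 68.1 ± 21.6 CPM, 0.00224) and Plek (71.9 ± 25.6 to 17.9 ± 8.78 CPM, 0.00233) also fell, with log2 fold changes of -2.17, -1.68 and -2.01 (SD, n = 3 and 9, as for all means of this comparison). Coro1a fell from 35.5 ± 16.5 to 13.7 ± 6.59 CPM (log2 fold change -1.38, edgeR adjusted p = 0.013), and without sensitive 2 its adjusted p was 0.123 (0.00375 to 0.123 over the 20 alternatives).

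Of the macrophage identity genes, 5 of 7 were lower, and Cd68 and Aif1 did not pass. Adgre1 was at 175, 236 and 90.9 CPM in sensitive libraries and ranged from 6.24 to 24, with a median of 12.7 CPM, in resistant libraries (log2 fold change -3.57 ± 0.38, edgeR adjusted p = 2.82e-05). Csf1r was at 95.5, 454 and 151 CPM against 12.6 to 42.1 CPM with a median of 29 (log2 fold change -3.02 ± 0.37, edgeR adjusted p = 7.91e-05). The lowest sensitive library was above the highest resistant library for both. Spi1 fell from 35.7 ± 26.2 to 8.24 ± 3.73 CPM (log2 fold change -2.11, edgeR adjusted p = 0.00196), Itgam from 453 ± 189 to 85.7 ± 29 CPM (-2.40, 5.29e-05) and Itgax from 8.06 ± 4.48 to 1.04 ± 0.953 CPM (-2.95, 0.00526). These 3 did not overlap either. Cd68 was at 79.2, 168 and 38.6 CPM in sensitive libraries and at 24 to 170 CPM, with a median of 69.7, in resistant libraries, of which resistant 3 was the highest (log2 fold change -0.24 ± 0.50, edgeR adjusted p = 0.729). Aif1 was at or below 1.25 CPM in all 12 libraries.

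Both ITAM adaptors were lower in resistant organoids. Tyrobp was at 78.7, 185 and 41.6 CPM in sensitive libraries and ranged from 9.34 to 24.3, with a median of 16.1 CPM, in resistant libraries (log2 fold change -2.67 ± 0.34, edgeR adjusted p = 0.000101). Fcer1g was at 94.9, 207 and 66 CPM against 8.23 to 30.4 CPM with a median of 17.4 (log2 fold change -2.71 ± 0.36, edgeR adjusted p = 0.000151). Fcgr3 fell from 248 ± 186 to 42.5 ± 34.1 CPM (log2 fold change -2.55, edgeR adjusted p = 0.0033), and none of the 3 overlapped. The high-affinity receptor Fcgr1 (4.27 ± 1.01 and 1.65 ± 1.18 CPM, log2 fold change -1.36, edgeR adjusted p = 0.092) and Trem2 (6.72 ± 4.72 and 4.37 ± 2.27 CPM, -0.62, 0.31) did not pass.

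Of the 6 pattern recognition and scavenger receptors, 5 were lower. Cd14 was at 617, 1422 and 779 CPM in sensitive libraries and at 26.2 to 253 CPM, with a median of 116, in resistant libraries (log2 fold change -2.95 ± 0.44, edgeR adjusted p = 0.000294). Marco was at 48.4, 49.7 and 29.3 CPM in sensitive libraries and ranged from 0.129 to 16.2, with a median of 1.08 CPM, in resistant libraries (log2 fold change -3.57 ± 0.95, edgeR adjusted p = 0.0105). Neither gene overlapped, and the 2 highest resistant libraries for Marco were resistant 9 and resistant 8. Clec7a fell from 49.6 ± 55.4 to 4.53 ± 2.56 CPM (log2 fold change -3.46, edgeR adjusted p = 0.000666) and Msr1 from 62.9 ± 30.7 to 18 ± 10.4 CPM (-1.80, 0.00452). Ly86 fell from 5.29 ± 3.81 to 1.26 ± 0.854 CPM (log2 fold change -2.07, edgeR adjusted p = 0.0322), and its adjusted p was 0.0608 without sensitive 1, 0.249 without sensitive 2, 0.0511 without resistant 7, 0.0501 without resistant 8, 0.0734 without resistant 6, 8 and 9 together and 0.0606 with a replicate block (0.0123 to 0.249 over the alternatives). Mrc1 was at 34.9, 89.3 and 20.1 CPM in sensitive libraries and at 5.57 to 53.9 CPM, with a median of 12.3, in resistant libraries (log2 fold change -1.44 ± 0.58, edgeR adjusted p = 0.0652). It passed, as lower, without resistant 4, its highest resistant library (edgeR adjusted p = 0.00834), and with a replicate block (0.0396). With DESeq2 it also passed as lower (adjusted p = 0.0434), over a range of 0.00834 to 0.502.

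None of the 3 C1q chains passed the test. Of the 9 resistant libraries, 7 were below every sensitive library for C1qa, and 6 were for C1qb and 6 for C1qc. C1qa was at 18.8, 23.8 and 13.8 CPM in sensitive libraries and ranged from 1.26 through a median of 5.98 to 43.8 CPM in resistant libraries (log2 fold change -0.77 ± 0.86, edgeR adjusted p = 0.5). C1qb was at 14, 23.3 and 11.7 CPM against 2.24 to 42.8 CPM with a median of 5.17 (log2 fold change -0.48 ± 0.80, edgeR adjusted p = 0.665). C1qc was at 12.1, 16.6 and 9.45 CPM against 1.06 to 35.8 CPM with a median of 3.23 (log2 fold change -0.39 ± 0.91, edgeR adjusted p = 0.764). At an unadjusted p under 0.05 edgeR called 0 of the 3, and DESeq2 called 0 at its adjusted p. Resistant 4 was above all sensitive libraries for each chain. Without it the log2 fold changes were -1.41, -1.04 and -0.94 for C1qa, C1qb and C1qc (edgeR adjusted p = 0.128, 0.232 and 0.369).

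All 3 NADPH oxidase genes were lower, without overlap. Cybb was at 663, 1288 and 492 CPM in sensitive libraries and ranged from 17.1 to 172, with a median of 57.5 CPM, in resistant libraries (log2 fold change -3.58 ± 0.53, edgeR adjusted p = 0.000301). Ncf1 fell from 60.8 ± 34.9 to 11.1 ± 5.73 CPM (log2 fold change -2.46, edgeR adjusted p = 0.000605) and Ncf4 from 33.7 ± 24.2 to 4.95 ± 2.06 CPM (-2.77, 0.000403). Of the effectors, 3 of 4 were lower. By its mean, Chil3 was the most abundant member per kilobase in sensitive organoids, at 2398 CPM per kilobase with a range of 188.8 to 5322. Lyz2 was at 929.3 to 1969 CPM per kilobase there, so the ranking did not hold in sensitive 3. Chil3 was at 2749, 8685 and 308 CPM in sensitive libraries, and at 3.88, 12, 0.531, 0.74, 0.904, 0.269, 18.4, 208 and 473 CPM in resistant libraries 1 to 9. Resistant 9 lay above sensitive 3, and the log2 fold change was -5.62 ± 1.74 (edgeR adjusted p = 0.0224). Without sensitive 2 its adjusted p was 0.105 (0.000628 to 0.105 over the alternatives). Lyz2 was at 1344, 2591 and 1223 CPM against 89.1 to 954 CPM with a median of 240 (log2 fold change -2.31 ± 0.57, edgeR adjusted p = 0.00745), and without sensitive 2 its adjusted p was 0.0526 (0.0008 to 0.0526 over the alternatives). Ctss fell from 524 ± 335 to 46.3 ± 28.3 CPM without overlap (log2 fold change -3.50, edgeR adjusted p = 0.000115). Pld4 did not pass (3.15 ± 0.959 and 4.36 ± 2.83 CPM, log2 fold change 0.47 ± 0.57, edgeR adjusted p = 0.543). Relatives of the named effectors ranged from 40.3 to 148 CPM (Lyz1) and from 5.87 to 200 CPM (Chil4) in sensitive libraries and reached 0.944 and 0.111 CPM in resistant libraries. Alveolar type 2 markers moved with Lyz2 here as well, with 6 of 11 lower and a summed level of 1240 to 2250 CPM in sensitive and 197.9 to 466.5 CPM in resistant libraries. Their part was not tested.

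**Figure D3:**
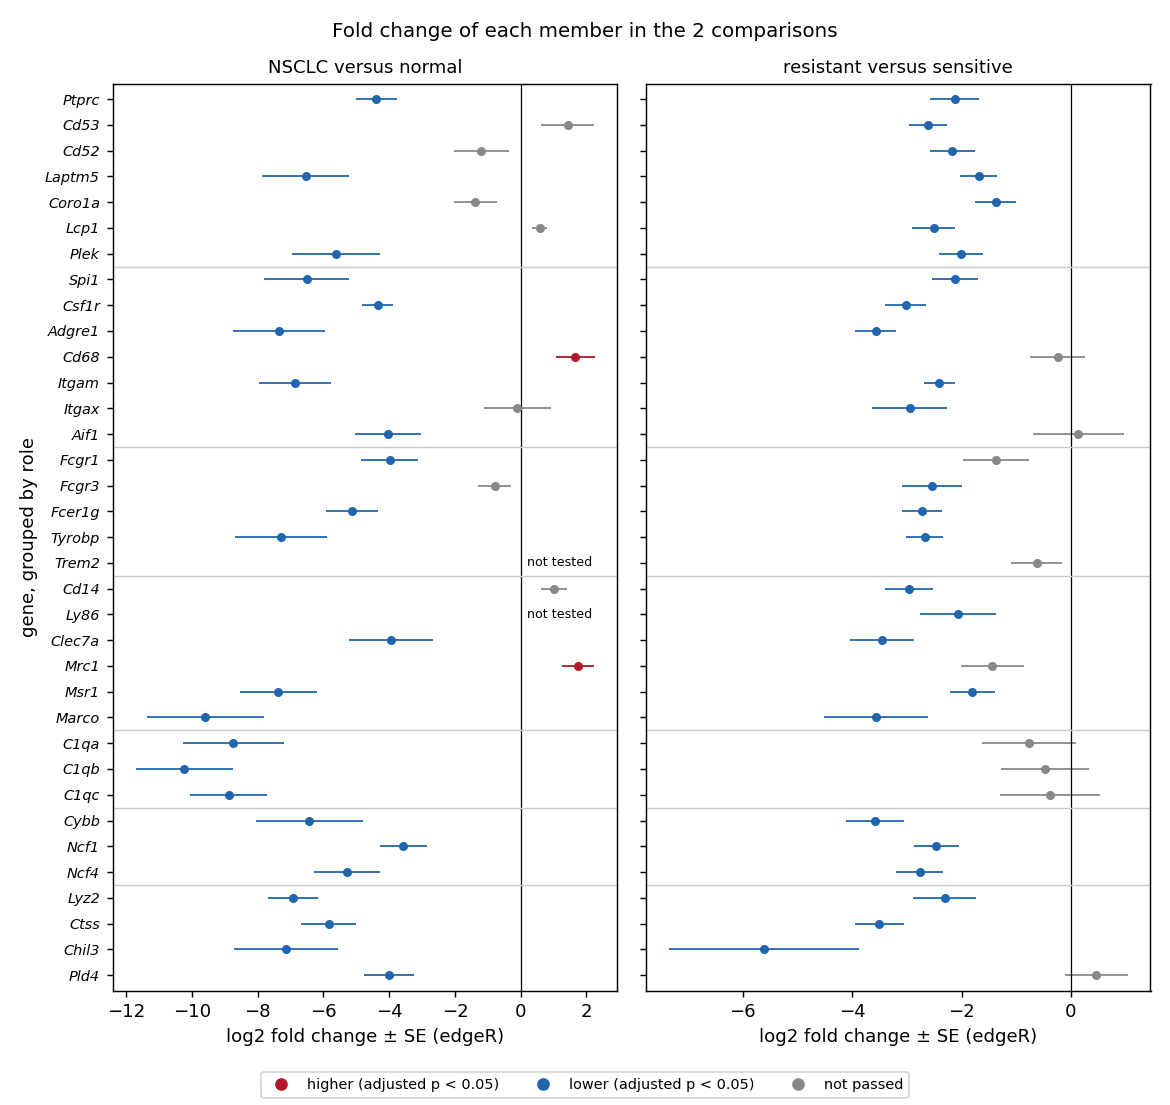
Log2 fold change of each member with its SE (edgeR) in NSCLC versus normal (left) and resistant versus sensitive (right) organoids, coloured by call. In the left panel 24 members are lower and Cd68 and Mrc1 are higher, and in the right panel 26 are lower and the 3 C1q chains have SEs that reach 0.

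Set side by side, 18 members were lower in both comparisons. The 7 that did not pass in NSCLC (Cd53, Cd52, Coro1a, Lcp1, Itgax, Fcgr3 and Cd14) were all lower in resistant organoids. Another 6 were lower in NSCLC and did not pass in resistant organoids, namely Aif1, Fcgr1, Pld4 and the 3 C1q chains. Cd68 and Mrc1 were higher in NSCLC and did not pass in resistant organoids. The difference between the comparisons was not tested, because the tables hold separate libraries. In the authors' deposited table, at an adjusted p under 0.05, 25 members were lower and 3 higher in NSCLC, beside 24.2% and 24.0% of all genes with an adjusted p there. For resistant organoids the authors' deposited table had 27 lower and 0 higher, beside 18.3% and 19.6% of all genes.

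The sensitive libraries also ranked alike across members. Sensitive 2 was the highest of the 3 for 33 of 35 members and for 37.7% of all genes, and sensitive 3 was the lowest for 32. The median ratio of sensitive 2 to sensitive 3 was 3.0 over the members and 0.986 over all genes, of which 8.83% were above 2. The summed level of neutrophil markers was also highest in sensitive 2, at 88.6 CPM against 35.9 and 38.9 CPM. The same held for dendritic cell markers (35.1 CPM against 21.4 and 13.3) and endothelial markers (15.5 against 9.48 and 7.56). It also held for erythroid and megakaryocyte markers (404.6 against 193.5 and 209.3). Markers of B cells, NK cells, epithelium and alveolar type 2 cells were highest in another sensitive library. The part of these lists was not tested. Without sensitive 2 the fold change of 12 of the 26 called members moved by over 1.5 times, and the median log2 value of the 26 went from -2.58 to -2.01. In the resistant group, resistant 4 was the highest library for 15 members, resistant 9 for 10, resistant 8 for 5, resistant 2 for 4 and resistant 3 for 1. Of all genes, 10.7%, 7.22%, 9.61%, 8.52% and 17.2% were highest in these libraries, in the same order. The lowest was resistant 6 for 13 members and 13.3% of all genes, and resistant 1 for 10 members and 15.6% of all genes.

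Whether the genes rose and fell together was asked over the 9 resistant libraries, the one group with at least 6. Members with at least 10 counts in at least 5 of these libraries were used, which left out Itgax and Aif1. Over the 528 pairs of the other 33, Spearman's rho of log2 CPM had a median of 0.33 and ran from -0.87 to 0.98, with 381 pairs above 0 and 147 below. Members share libraries, so the pairs are not independent. In tests against a reference gene, 63 relations were computed, 31 with Tyrobp and 32 with Ptprc, with exact two-sided permutation of pairings and Benjamini-Hochberg adjustment over the 63.

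**Figure D4:**
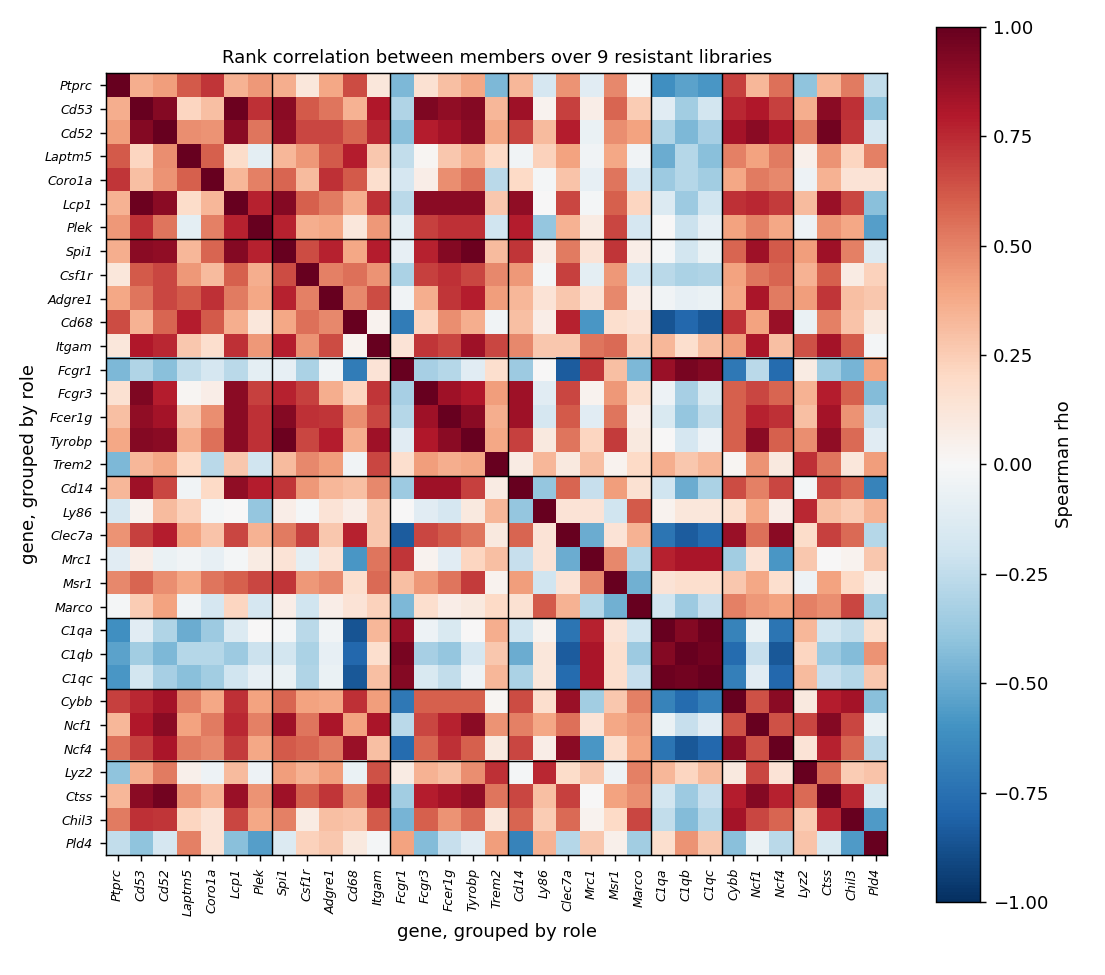
Spearman's rho of log2 CPM between each pair of 33 members over the 9 resistant libraries, with genes in the order of their roles and colour running from negative to positive rho. The C1q chains form a block of high rho, and Fcgr1 and Mrc1, in rows apart from it, also have high rho with them. All of these lie below 0 against Cybb, Cd68 and Clec7a.

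Most members had a positive rho with the adaptor Tyrobp. Their median rho with Tyrobp was 0.60 and 26 of 31 were above 0, while the median over all 12857 genes with a mean of at least 1 CPM was 0.02, with 51.7% above 0. Spearman relations passed for 8 members. Spi1 had rho 0.98 (exact permutation p = 4.96e-05, adjusted p = 0.00313) and Pearson r 0.93 (p = 0.000322, adjusted p = 0.0203), and r was 0.96 without resistant 4 and 6, the libraries farthest from the median of Tyrobp. The others were Cd53 (rho 0.92, exact permutation adjusted p = 0.0213), Cd52, Lcp1, Fcer1g and Ncf1 (0.90 each, 0.0213), Ctss (0.88, 0.0277) and Itgam (0.85, 0.0478). Their Pearson r was 0.78 to 0.87, with exact permutation adjusted p of 0.0601 to 0.0748, so none of these 7 passed by Pearson. With adjustment over all 528 pairs instead, Ctss (exact permutation adjusted p = 0.0541) and Itgam (0.0729) did not pass by Spearman. Without resistant 4 and 6 their r was 0.67 to 0.91, with the exception of Itgam, at 0.36, whose relation rests on those libraries. Against Ptprc the median rho was 0.33, with 22 of 32 above 0. By exact permutation 0 relations with Ptprc passed after adjustment, with 1 by Spearman and 2 by Pearson at an unadjusted p under 0.05. Resistant 8 and 9 stood apart in epithelial markers, and without them 0 of the 63 relations passed by either measure, with a smallest Spearman adjusted p of 0.0583 and 12 relations at an unadjusted exact p under 0.05 (n = 7). In those 7 libraries rho with Tyrobp was 0.96 for Spi1 and Cd53 and 0.93 for Cd52 and Lcp1.

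The C1q chains rose and fell with each other, and their relations with Tyrobp did not pass. The 528 pairs were adjusted together, and 26 passed by Spearman and 35 by Pearson (exact permutation). C1qa and C1qc had rho 0.98 (exact permutation p = 4.96e-05, adjusted p = 0.00873) and r 0.98 (p = 8.27e-06, adjusted p = 0.00291). For C1qb and C1qc rho was 0.97 (exact permutation adjusted p = 0.0175) and r 0.99 (0.00291), and for C1qa and C1qb rho was 0.92 (0.0412) and r 0.97 (0.00728). Without the 2 libraries farthest from the median of the first gene, r was 0.94 to 0.98 for these pairs. Fcgr1 went with C1qb (rho 0.95, exact permutation adjusted p = 0.031, r 0.92, adjusted p = 0.0259, r without the 2 farthest 0.91). With Tyrobp, rho was -0.05 for C1qc and -0.17 for C1qb, and the exact permutation p was 1 for C1qa. With Cybb it was -0.67, -0.77 and -0.68 for C1qa, C1qb and C1qc, with exact permutation adjusted p of 0.141 to 0.227. With Cd68 it was -0.87, -0.78 and -0.85 (0.068 to 0.132). The negative relations did not pass.

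**Figure D5:**
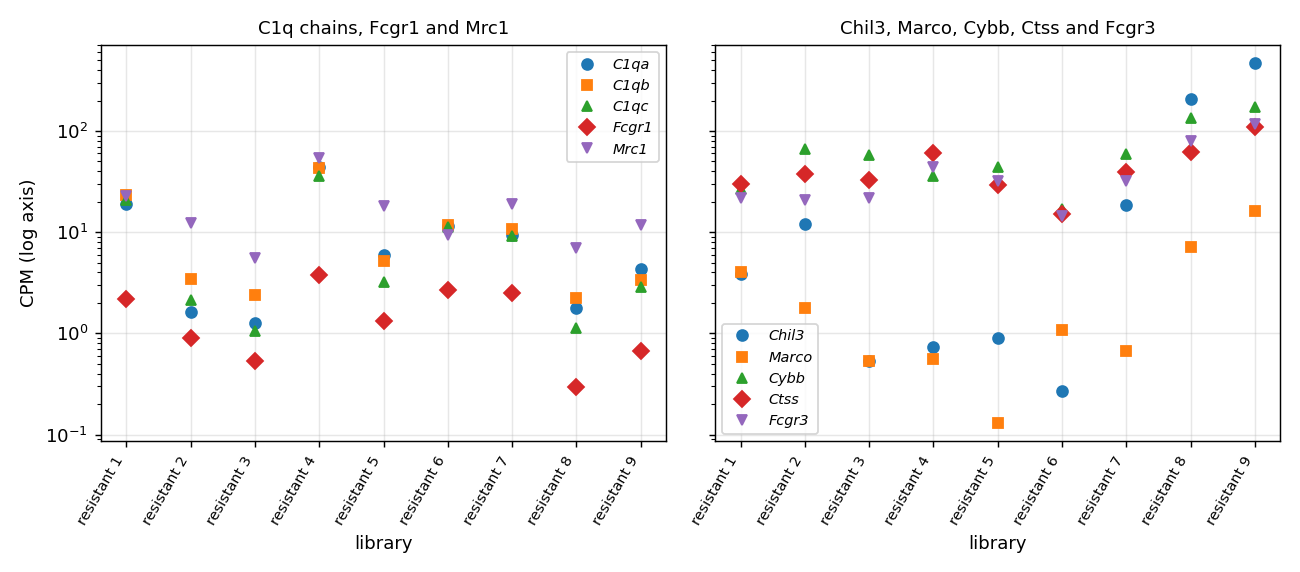
CPM (log axis) of the C1q chains, Fcgr1 and Mrc1 (left) and of Chil3, Marco, Cybb, Ctss and Fcgr3 (right) in resistant libraries 1 to 9, with 1 point per library. The C1q chains are highest in resistant 4 and next highest in resistant 1, while the 5 genes of the right panel are highest in resistant 9 and next highest in resistant 8.

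The library order behind these relations differed between genes, also within a role. Fcgr1 and Mrc1 were highest in resistant 4, while Fcgr3 and Marco, of the same roles, were highest in resistant 9. C1qa was at 19.1, 1.63, 1.26, 43.8, 5.98, 11.4, 9.47, 1.77 and 4.33 CPM in resistant libraries 1 to 9, and so was highest in resistant 4 and 1. C1qb and C1qc had the same 2 highest libraries. Cybb was at 26.8, 66.3, 57.5, 35.5, 44.5, 17.1, 59.6, 136 and 172 CPM, highest in resistant 9 and 8, as were Chil3, Marco, Ctss and Fcgr3. Resistant 8 and 9 were also the libraries with the most epithelial marker counts, as given above, and the part of this in the result was not tested. Tyrobp varied less, from 9.34 CPM in resistant 6 to 24.3 CPM in resistant 4.

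Most other myeloid genes were lower in both comparisons. Of 44 other myeloid genes, 42 were tested in NSCLC, where 28 were lower and 3 higher with a median log2 fold change of -5.49. Their summed level overlapped, at 182.8 to 444.6 CPM in normal and 204.4 to 324.4 CPM in NSCLC libraries. It did not overlap between sensitive (1971 to 6700 CPM) and resistant libraries (424.8 to 1083 CPM). Irf8, a transcription factor of monocytes, rose from 3.49 to 62.7 CPM (log2 fold change 4.16 ± 0.54, edgeR adjusted p = 0.000402), and so went against the list. In resistant organoids all 44 were tested, and 38 were lower and 0 higher (0 at an unadjusted p under 0.05 with edgeR, and 0 with DESeq2), with a median log2 fold change of -2.09. Cd33, a sialic acid-binding receptor, fell from 86.9 to 7.31 CPM (log2 fold change -3.57 ± 0.45, edgeR adjusted p = 0.000108). Of the genes used to tell subsets of tissue macrophages and monocytes, 3 of 11 were lower and 2 higher in NSCLC, and 3 of 12 were lower in resistant organoids. These shares lie near those of all genes, of which 25.0% were lower and 28.5% higher in NSCLC and 18.2% were lower in resistant organoids. Ly6c2, a marker of mouse inflammatory monocytes, fell in the latter from 9.4 to 0.438 CPM (log2 fold change -4.46 ± 0.84, edgeR adjusted p = 0.00142).

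Ligands that keep or attract macrophages went in both directions, as all genes tested did. In NSCLC, 4 of 7 tested were lower and 2 higher, beside 25.0% and 28.5% of all genes tested. Ccl2, the main monocyte attractant, fell from 79.2 to 0.0402 CPM (log2 fold change -10.92 ± 0.75, edgeR adjusted p = 1.6e-05), and Cx3cl1, fractalkine, rose from 12.1 to 87.6 CPM (2.85 ± 0.18, 1.17e-05). In resistant organoids 3 of 8 were lower and 1 higher, beside 18.2% and 19.3% of all genes tested. Csf2, the growth factor GM-CSF on which alveolar macrophages depend, fell from 38.6 to 0.695 CPM (log2 fold change -5.80 ± 0.90, edgeR adjusted p = 0.000408). Csf1, a ligand of the Csf1r product, rose from 17.1 to 258 CPM (3.91 ± 0.61, 0.000426).

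In NSCLC, T cell markers had 1 of 4 tested genes higher (Lck) and 0 lower, B cell markers had 2 of 3 lower, and neutrophil markers had 3 of 7 lower and 3 higher. Of all genes tested there, 25.0% were lower and 28.5% higher. In resistant organoids, edgeR called 0 of 13 T cell, 0 of 5 B cell and 0 of 2 NK cell markers. At an unadjusted p under 0.05 it called 1, 1 and 0 of them, and DESeq2 called 1, 0 and 0 at its adjusted p. Neutrophil markers had 1 of 5 lower (Csf3r) and 1 higher (Ngp), which is near the shares of all genes tested in resistant organoids (18.2% lower and 19.3% higher). Summed T cell markers were at 19.4 to 25.4 CPM in sensitive and 7.25 to 56.5 CPM in resistant libraries, the highest being resistant 2, which was also the highest for Ptprc. Their part in the Ptprc level was not tested. Fibroblast markers were higher in resistant organoids for 8 of 10 tested genes, and epithelial markers were lower for 6 of 10.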

How the data were processed

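RNA was measured by sequencing in 19 libraries with a stranded mRNA kit and paired reads, per the labels' protocols. The submitters' processing notes name STAR 2.6.0a, DESeq2 1.26.0 and the build mm10, and no source used here gives the read counter, its strand setting or the annotation. Raw read counts, whole numbers for each gene in each library, came from 2 tables that the authors deposited. Beside the counts, both deposited tables list log2 fold changes and adjusted p-values computed by the authors, which are named as theirs where printed.

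Each table was analysed on its own, with edgeR 4.0.16 in R 4.3.3: filterByExpr by group, TMM scaling, and glmQLFit and glmQLFTest on group alone over all genes, with Benjamini-Hochberg adjustment and a threshold of 0.05. The SE of a log2 fold change is its size divided by the root of edgeR's F statistic. CPM is the count over the TMM-scaled library size, and correlations used log2 CPM with a prior count of 2. Exact intervals of count ratios are conditional on the summed reads and cover counting error only. Gene lengths and positions are from GENCODE for GRCm38, and promoters from RefSeq. The steps were tested on simulated data. Replicate numbers did not pair the libraries, and no 2 libraries of a group agreed within counting noise. Resistant 2 and 3 and resistant 8 and 9 were closest, with a chi-square between their counts of 19.5 and 26.9 per degree of freedom. Other resistant pairs had 63.9 to 219. The tests took all resistant libraries as separate, and whether these pairs share an origin is not given. Alternatives were DESeq2 1.42.0, other scalings and filters, thinning to the shallowest library (20138197 and 11988677 counts), a replicate block and leaving out libraries. All 35 members were named. Of each other list, at most the 3 genes with the smallest adjusted p past the threshold could be named. The members and lists were chosen with earlier results of these data known.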

Additional observations from a re-analysis of the deposited data

Results flagged for a closer look

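A single library stood far from the others of its group for 12 of the 35 members in NSCLC and 7 in resistant organoids. The rule sets the gap to the next value against the range. Its limits flag about 1 group in 20 by chance only where values follow a normal distribution, which the CPM of sparse genes do not. A gene read in a single NSCLC library, as Marco and C1qb were, is flagged at any count. Members share libraries, so these are not separate events.

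NSCLC 4 was far above the other 3 NSCLC libraries for Chil3 (0.9757 CPM, next highest 0.01607), Cybb (0.9339, next 0.04028), Marco (0.2927, next 0), Spi1 (0.1394, next 0.02482), Itgam (0.1255, next 0.01655), Tyrobp (0.1115, next 0.008273), Ncf4 (0.07666, next 0.01343) and Msr1 (0.02788, next 0.008273). These levels were still below those of every normal library. NSCLC 1 was far below the others for Cd53 (1.358 CPM, next lowest 12.64) and far above them for Fcgr1 (0.1125, next 0.0537). NSCLC 2 was far above for Lcp1 (343.7 CPM, next 209.4), and NSCLC 3 for C1qb (0.01655 CPM, which is 2 reads, next 0).

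Among the 9 resistant libraries, resistant 9 was far above the others for Chil3 (473.1 CPM, next highest 208.4), Ctss (110.5, next 62.2), Marco (16.21, next 7.193) and Clec7a (9.993, next 5.66). Resistant 4 was far above for Mrc1 (53.9 CPM, next 22.7) and C1qa (43.77, next 19.14), and resistant 2 for Ptprc (35.29, next 15.85).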

How the results depend on the processing

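The count of members lower in resistant organoids was 26 and stayed between 22 and 27 over all alternatives, the lowest being without sensitive 2. In NSCLC 24 members were lower, with 22 to 27 over the libraries left out in turn, and 15 of 23 tested after thinning, which left fewer members to test. The 2 higher calls in NSCLC became 1 with upper quartile scaling and 1 after thinning, and 0 to 3 over the libraries left out (0 without normal 3, 1 without normal 1 and 1 without NSCLC 2). Upper quartile scaling moved the median log2 fold change of all genes in NSCLC by -0.18. The 8 Spearman relations over resistant libraries became 0 without resistant 8 and 9, a setting with 7 libraries; the cause was not tested. Direction turned for members that had not passed: Itgax in NSCLC without normal 2 (0.26) or normal 3 (0.34, its highest over the libraries left out, with -0.65 the lowest), Fcgr3 without normal 2 (0.076, lowest -1.17), and in resistant organoids Cd68 (0.45, lowest -0.62) and Trem2 (0.12, lowest -0.93) without sensitive 2 and Aif1 (highest 0.95) without sensitive 2 (-0.00184) or sensitive 3 (-0.25). Of the single-member results under alternatives, 415 of 435 in NSCLC and 679 of 695 in resistant organoids kept direction and side of the threshold. Alternatives in which a member had no adjusted p are left out of these totals.

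Same-numbered libraries did not deviate together in NSCLC (correlations -0.00683, -0.0197 and -0.031) or consistently in resistant organoids (0.157, 0.16 and -0.0929), and 0 of 6 and 2 of 6 libraries correlated best with their own number. With a replicate block, 21 members were lower and 3 higher in NSCLC (of 31 tested), and 26 lower and 0 higher in resistant organoids (of 34 tested). Counts under 10 in most NSCLC libraries limit the fold changes of C1q, Tyrobp, Msr1 and Marco. The same holds for Spi1, Chil3, Cybb, Itgam, Ncf4, Plek and Clec7a, among others.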

Other observations

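Some genes listed under other blood lineages or under macrophage subsets also differed between groups. Pf4 went against most members in NSCLC and with them in resistant organoids. Pf4, platelet factor 4, rose in NSCLC from 5.45 to 52.3 CPM (log2 fold change 3.26 ± 0.37, n = 3 and 4, edgeR adjusted p = 0.000201) and fell in resistant organoids from 259 to 38.7 CPM (-2.74 ± 0.37, n = 3 and 9, edgeR adjusted p = 0.000153). Mcpt8, a protease of mouse basophils, rose in NSCLC from 0.0308 to 36.7 CPM (log2 fold change 10.17 ± 2.07, edgeR adjusted p = 0.00389). Of the other 3 tested mast cell and basophil markers, 1 was lower and 2 did not pass. The summed level of these markers was 159.6 to 169.7 CPM in normal libraries. It was 8.58, 41.8, 39.6 and 192 CPM in NSCLC libraries 1 to 4. Plac8, a protein of monocytes and also of epithelial cells, rose in NSCLC from 1.89 to 99.7 CPM (log2 fold change 5.72 ± 0.55, edgeR adjusted p = 9.19e-05).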
